A study of Mus musculus with 6 samples.

Results

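The 6 genes named as pluripotency-associated transcripts, Platr14, Platr3, Platr11, Platr5, Platr26 and Platr4, were examined in cells differentiated from mouse embryonic stem cells with and without a static magnetic field. They are all rows of the deposited tables whose gene name is Platr followed by a number, 6 of 2031 genes, and every one carries the biotype lncRNA. The GENCODE vM21 annotation holds 30 genes with such names, so 24 of them were not analysed here. RNA came from differentiated cells of the J1 line, a stem cell line of the 129S4/SvJae strain, made through embryoid bodies that formed in hanging drops over 3 days in a protocol aimed at heart muscle, and trypsinised before extraction. The labels put 3 libraries in the NC group, from a conventional incubator, and 3 in the MF group, from cells exposed to a static magnetic field. All 6 libraries share the line, the strain and the poly-A selection. How strong the field was, how long it acted and when cells were collected were not stated in the sources used.

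Platr transcripts are long noncoding RNAs that were catalogued because mouse embryonic stem cells express them and lose them on differentiation. They are not a sequence family: each comes from its own locus. In mouse cells, depletion of Platr14 has been reported to alter genes of differentiation and development, and Platr4 has been studied as a noncoding RNA of the early embryo that acts in the commitment of heart-forming mesoderm.

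The tables hold a selection made by the authors on this same contrast. In the authors' deposited table no gene has an adjusted p above 0.0499, and the smallest log2 fold change in size is 1.001. The MF and NC levels below therefore describe genes that had to differ, and no p-value of a fit made here is printed for a single one of them. For the 6 Platr genes the authors' deposited table gives log2 fold changes from -3.25 (Platr26) to -2.20 (Platr14) and adjusted p-values from 0.00902 (Platr11) to 0.0283 (Platr4). Platr4 is thus the one nearest to the threshold on its inner side, and the Platr genes outside it were not analysed here. The direction is shared by 36.8% of all deposited genes, which are listed as lower in MF.

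The depth, recovered from counts and FPKM, ran from 14929232 to 19176383 counts a library. NC replicate 2 and MF replicate 2 stood apart from the other libraries of their groups: 82.5% of the 709 named genes listed as lower in MF were highest in NC replicate 2, and for 85.6% of them MF replicate 2 was the highest MF library. The summed level of the 12 deposited cardiomyocyte markers of 15 listed ranged from 32.9 to 78.9 FPKM (fragments per kilobase, scaled to library depth) in NC and from 135 to 767 FPKM in MF, and that of the 14 deposited naive pluripotency regulators of 35 listed from 460 to 1137 FPKM in NC and from 112 to 336 FPKM in MF.

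The loci are dispersed, with Platr14, Platr3 and Platr26 on different parts of mouse chromosome 2 (build mm10, from the files). Platr14 spans 104559163 to 104571429 on the plus strand, Platr3 135648907 to 135652063 on the plus strand and Platr26 71719417 to 71730966 on the plus strand. Platr5 lies on chromosome 1 (88754890 to 88755736, plus strand), Platr4 on chromosome 3 (41484024 to 41493192, minus strand) and Platr11 on chromosome 9 (118404097 to 118406099, minus strand). The deposited gene lengths, from 388 bases for Platr11 to 2553 for Platr4, equal the union of the annotated exons in GENCODE vM21 for all 6. Platr14 has 6 annotated transcripts of 2 to 4 exons, Platr4 has 3 of 2 exons, Platr5 has 2 of 3 exons, and Platr3, Platr11 and Platr26 have 1 transcript of 4 exons each. The pseudogene Gm6069 overlaps Platr4, and 0 exon bases are shared; the other 5 overlap no annotated gene.

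RefSeq's promoter table (build GRCm38.p6, 250 bases before to 50 after a start site) holds 4 of the 6 genes, Platr14, Platr3, Platr26 and Platr5. They are printed here because the genes were lower together, so that a reader can see what their start regions do and do not have in common. Capitals mark the 2 kinds of motif found among those searched. The windows are chr2:104559209-104559508 for Platr14, chr2:135646273-135646572 for Platr3, chr2:71719167-71719466 for Platr26 and chr1:88754640-88754939 for Platr5, all on the plus strand.
Platr14: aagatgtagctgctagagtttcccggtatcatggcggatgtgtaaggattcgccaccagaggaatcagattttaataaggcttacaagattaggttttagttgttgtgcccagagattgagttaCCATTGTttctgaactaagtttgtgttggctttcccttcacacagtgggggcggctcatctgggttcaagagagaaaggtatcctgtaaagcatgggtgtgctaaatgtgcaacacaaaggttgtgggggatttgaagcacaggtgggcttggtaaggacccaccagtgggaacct
Platr3: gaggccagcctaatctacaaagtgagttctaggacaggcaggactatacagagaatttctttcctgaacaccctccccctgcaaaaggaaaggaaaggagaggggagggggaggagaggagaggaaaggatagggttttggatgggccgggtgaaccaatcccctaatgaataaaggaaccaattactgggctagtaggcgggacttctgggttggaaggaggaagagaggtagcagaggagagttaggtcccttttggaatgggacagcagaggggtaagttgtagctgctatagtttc
Platr26: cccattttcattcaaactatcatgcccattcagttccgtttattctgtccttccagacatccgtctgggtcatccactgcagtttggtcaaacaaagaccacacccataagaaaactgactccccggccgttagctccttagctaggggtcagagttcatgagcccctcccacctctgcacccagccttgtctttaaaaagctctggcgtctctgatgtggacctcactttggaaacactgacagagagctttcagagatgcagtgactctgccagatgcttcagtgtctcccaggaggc
Platr5: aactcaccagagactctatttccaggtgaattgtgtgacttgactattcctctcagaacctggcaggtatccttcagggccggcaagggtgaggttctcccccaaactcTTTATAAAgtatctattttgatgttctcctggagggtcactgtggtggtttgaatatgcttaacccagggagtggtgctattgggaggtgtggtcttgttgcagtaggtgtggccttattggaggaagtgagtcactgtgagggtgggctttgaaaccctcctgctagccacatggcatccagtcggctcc

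Few of the searched motifs of stem cell transcription factors were in these windows. The searched letters, on both strands, were ATGCAAAT for the octamer of POU factors, TCAAGGTCA for ESRRB and GGGTGTGGC for KLF factors. The TATA box was searched as TATAAA, and 2 further motifs with a free base, of SOX factors and of SOX with POU factors combined (which contains the octamer), are given by name. The start site that the table gives for Platr14, 104559459, lies inside the gene, whose RefSeq model begins at 104559184. Platr14 held 1 SOX match, 126 bases before that internal start site, a motif found in 8.09% of all 32851 promoter windows. Platr5 held TATAAA on both strands in overlapping positions, the plus-strand match 139 bases before the start, and 13.6% of all windows hold that motif. The octamer, combined, ESRRB and KLF letters were in none of the 4 windows, and they are in 1.74%, 0.0183%, 0.423% and 1.35% of all windows. The GC content was 46.7% for Platr14, 50.7% for Platr3 and Platr26 and 50.3% for Platr5, against a median of 52.7% over all windows.

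Although the loci are unrelated by position, a shared stretch of sequence is shown for 2 pairs. Transcripts were aligned for all 15 pairs of members. Of the promoter windows only that of Platr3 was aligned, with Platr14 transcripts, so other windows were not searched. The first pair is Platr14 and Platr3, the 2 genes with the highest levels, and its stretch is at their start. Aligned as transcripts, this pair had a local score of 12, against 59 for Platr5 and Platr4. Bases 1 to 68 of a 770-base Platr14 transcript aligned with bases 234 to 300 of the Platr3 window, with 57 of 65 aligned bases identical (87.7%), and the Platr3 stretch begins 17 bases before the RefSeq start site. The stretches are printed with identical bases in capitals. Bases opposite a gap are not counted as aligned, here and for the second pair.
Platr14: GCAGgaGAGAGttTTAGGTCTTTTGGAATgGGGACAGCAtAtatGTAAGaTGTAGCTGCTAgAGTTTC
Platr3: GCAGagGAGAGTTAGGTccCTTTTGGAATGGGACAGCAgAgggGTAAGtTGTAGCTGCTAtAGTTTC
The Platr14 stretch has a run of 20 bases in common with 4 other noncoding genes of the 13374 annotated, and the Platr3 stretch with 0. RefSeq places the start of Platr3 at 135646523, before the start of the gene model behind the counts, so this stretch lies outside the counted exons of Platr3.

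The second pair is Platr5 and Platr4, whose transcripts gave the highest local alignment score among the 15 pairs of members (59, against 17 for the next pair). Bases 11 to 115 of a 358-base Platr5 transcript aligned with bases 2041 to 2142 of a 2161-base Platr4 transcript, near the start of the one and the end of the other, with 84 of 102 aligned bases identical (82.4%).
Platr5: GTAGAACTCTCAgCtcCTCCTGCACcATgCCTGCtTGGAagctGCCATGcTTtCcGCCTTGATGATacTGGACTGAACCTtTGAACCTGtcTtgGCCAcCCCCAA
Platr4: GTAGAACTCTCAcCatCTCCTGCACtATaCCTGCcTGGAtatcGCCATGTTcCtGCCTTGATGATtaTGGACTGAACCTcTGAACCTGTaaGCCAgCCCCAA
A run of 20 bases from these stretches occurs in 95 (Platr5) and 151 (Platr4) other annotated noncoding genes, so neither stretch is unique to its gene. Reads from such a stretch can match several loci, and the sources used do not state how the authors' counting treated them.

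Platr14 had the highest level of the 6 in every library. It stood at 7.73, 34.2 and 9.46 FPKM in NC replicates 1, 2 and 3 and at 0.727, 6.90 and 3.54 FPKM in MF replicates 1, 2 and 3. The groups did not overlap, but narrowly: the lowest NC library was 1.12 times the highest MF library. The group means were 17.1 ± 14.8 FPKM in NC and 3.72 ± 3.09 FPKM in MF (SD, n = 3), a 4.61-fold lower level in MF (log2 fold change -2.20, SE 0.81, edgeR). Counts of 22 to 871 lay behind these values, so that for NC replicate 2 the counting interval was 32.0 to 36.6 FPKM (95%, exact Poisson), far above the other NC libraries. Without NC replicate 2 the fold was 2.31, and without MF replicate 2 it was 8.06. In bulk RNA, fewer cells with a transcript and less of it per cell cannot be told apart, and this holds for every level given here.

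Platr3 also stood highest in NC replicate 2, with a larger fold between the groups than Platr14. Its NC values were 7.13, 19.1 and 3.58 FPKM and its MF values 0.127, 1.88 and 2.09 FPKM for replicates 1, 2 and 3. MF replicate 1 rests on 1 count and MF replicates 2 and 3 on 13 and 14 counts. The 2 latter libraries were alike within counting error, with upper bounds of 3.21 and 3.50 FPKM. The means were 9.95 ± 8.15 and 1.36 ± 1.08 FPKM (SD, n = 3), 7.28-fold lower in MF (log2 fold change -2.86, SE 0.95). Without NC replicate 2 the fold was 3.93.

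Platr26 had no count in MF replicate 1 and the largest fold of the 6. Its NC values were 3.79, 9.01 and 2.19 FPKM, and the MF values 0, 1.21 and 0.383 FPKM. A count of 0 in MF replicate 1 allows a level of up to 0.244 FPKM for this gene length (3 counts), and the counting interval of MF replicate 3 reaches below that level. Means of 4.996 ± 3.56 and 0.530 ± 0.617 FPKM (SD, n = 3) gave a 9.36-fold lower level in MF (log2 fold change -3.23, SE 1.07). The fold was 5.61 without NC replicate 2, 6.19 without MF replicate 1 and 25.9 without MF replicate 2.

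Platr4 had the lowest level per length of the 6 in every NC library. It stood at 0.751, 2.53 and 1.15 FPKM in NC and at 0.0613, 0.606 and 0.241 FPKM in MF. The highest MF library, replicate 2 with 26 counts, was close to the lowest NC library, replicate 1 with 30 counts, and their counting intervals overlapped (0.396 to 0.888 and 0.506 to 1.07 FPKM). The means were 1.48 ± 0.932 and 0.303 ± 0.278 FPKM (SD, n = 3), 4.87-fold lower in MF (log2 fold change -2.28, SE 0.85). The fold was 3.14 without NC replicate 2 and 9.79 without MF replicate 2. The summed cardiomyocyte markers given above were higher in MF, and the part of heart muscle cells in the Platr4 values was not tested.

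Platr5 departed from the other 5 in the NC group. Its NC libraries were at 5.70, 5.32 and 4.68 FPKM, with a coefficient of variation of 9.76%, against 63.1% to 93.1% for the other 5 genes. NC replicate 2 was 1.02 times the level of the other 2 NC libraries together (counting interval 0.707 to 1.46), whereas it was between 2.67 times (Platr4, 1.96 to 3.64) and 4.35 times (Platr11, 2.81 to 6.86) for the others. In MF the values were 0.547, 1.98 and 0 FPKM, and the 0 counts of MF replicate 3 allow up to 0.322 FPKM. The means were 5.23 ± 0.511 and 0.841 ± 1.02 FPKM (SD, n = 3), 6.14-fold lower in MF (log2 fold change -2.62, SE 0.99). Leaving out NC replicate 2 left this fold at 6.10, and leaving out MF replicate 2 gave 17.5.

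**Figure D1:**
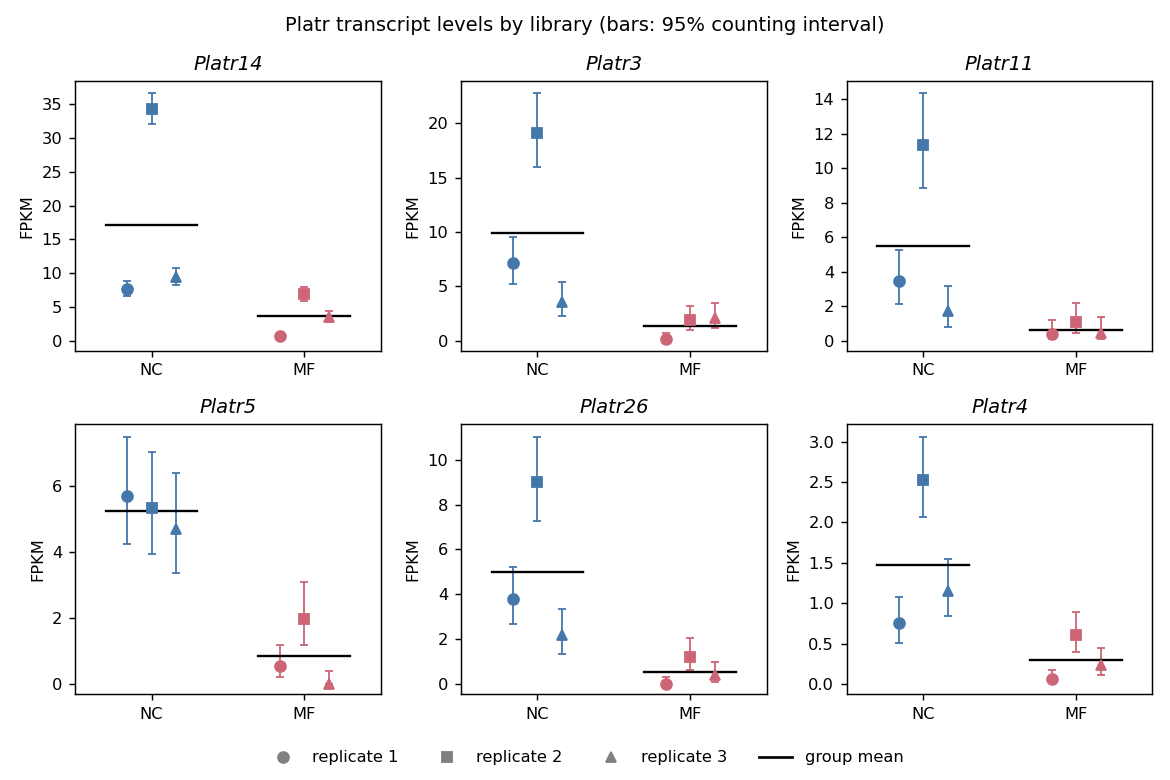
Level in FPKM of each of the 6 Platr genes in the 3 NC and 3 MF libraries, with bars for the 95% counting interval of each library and a line at the group mean. Every MF library lies below every NC library for each gene, NC replicate 2 is the highest library for all but Platr5, and the 3 NC libraries of Platr5 lie within 4.68 to 5.70 FPKM. The bars of the lowest NC and the highest MF library overlap for every gene but Platr5.

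Platr11 stands next to Eomes, the T-box transcription factor of mesoderm and endoderm formation, and it is the one member whose nearest protein-coding gene was itself deposited. Its NC values were 3.46, 11.4 and 1.73 FPKM and its MF values 0.403, 1.07 and 0.475 FPKM. All MF libraries lay below all NC libraries, but they rest on 3, 7 and 3 counts. Means of 5.51 ± 5.13 and 0.651 ± 0.368 FPKM (SD, n = 3) gave an 8.31-fold lower level in MF (log2 fold change -3.05, SE 0.91), and the fold was 3.92 without NC replicate 2.

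The unclassified gene 2610509F24Rik lies 795 bases beyond Platr11 on the same strand, and its values went with those of Platr11. It stood at 1.75, 5.78 and 1.12 FPKM in NC and at 0, 0.781 and 0.220 FPKM in MF. The level of Platr11 was 1.97, 1.97 and 1.54 times that of 2610509F24Rik in NC replicates 1, 2 and 3 and 1.37 and 2.16 times in MF replicates 2 and 3. RefSeq's model of Platr11 runs from 118402017 to 118447177 and covers both deposited genes, so the files may count parts of 1 RefSeq gene as 2.

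Eomes starts 72113 bases from Platr11 on the opposite strand and differed from it within the NC group. Its NC libraries were at 3.00, 3.35 and 3.74 FPKM, a narrow range in which NC replicate 2 was in the middle, while Platr11 was highest in NC replicate 2 by far. In MF, Eomes was at 0.326, 1.80 and 0.384 FPKM, with replicate 2 highest as for Platr11. Eomes was 4.01-fold lower in MF (3.36 ± 0.371 and 0.839 ± 0.837 FPKM, SD, n = 3). The difference between the 2 genes within NC was not tested, as it rests on 1 library.

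**Figure D2:**
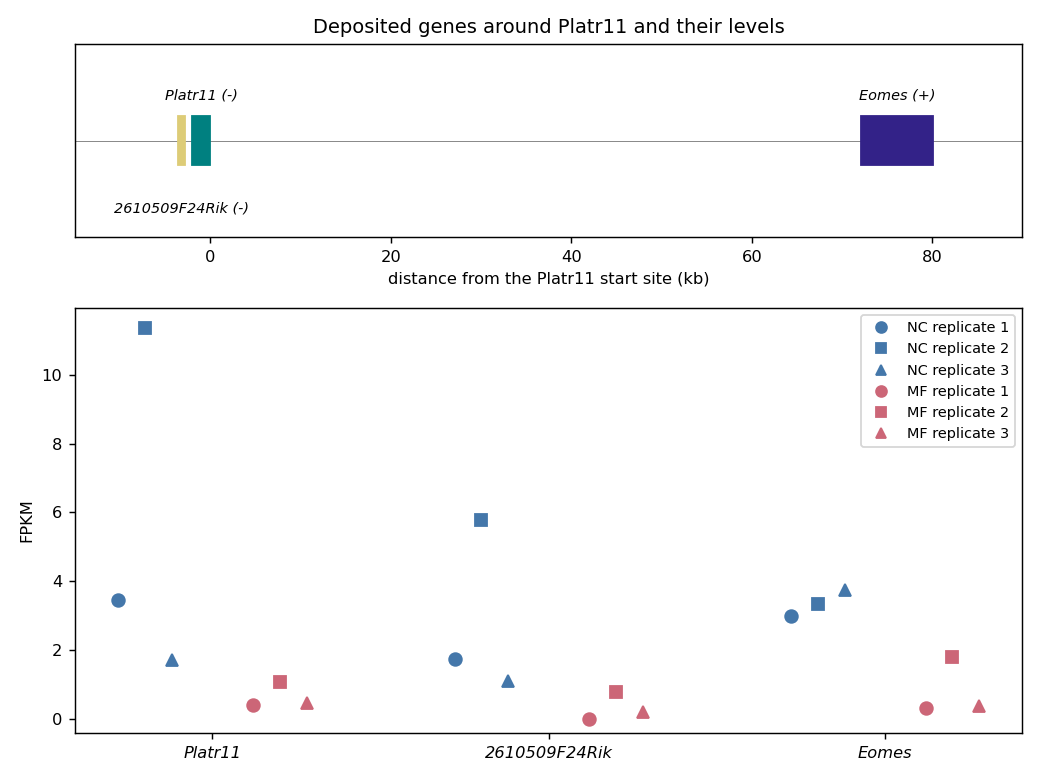
Top, position of the deposited genes 2610509F24Rik, Platr11 and Eomes in kb from the Platr11 start site, with the strand in brackets. Bottom, FPKM of the 3 genes in each NC and MF library: Platr11 and 2610509F24Rik are both highest in NC replicate 2 (11.4 and 5.78 FPKM), while Eomes lies between 3.00 and 3.74 FPKM in all NC libraries.

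The other members had few deposited neighbours. Around Platr14, the kinase gene Hipk3 (64717 bases away) was higher in MF, at 12.8 ± 3.88 FPKM against 4.95 ± 0.511 FPKM in NC (log2 fold change 1.37, but 0.25 with TMM and 0.21 with DESeq2 scaling), and Depdc7 (150355 bases away) was lower, at 2.78 ± 1.43 against 6.91 ± 2.22 FPKM (SD, n = 3). Plcb1, a phospholipase C gene 173649 bases from Platr3, was higher in MF at 0.334 ± 0.00511 against 0.115 ± 0.0448 FPKM (SD, n = 3). Its log2 fold change was 1.53, but 0.45 with TMM and 0.46 with DESeq2 scaling. Both scalings rest on the deposited genes alone, most of them higher in MF. They moved the median of all genes by -1.09 (TMM) and -1.12 (DESeq2), and the smaller values of Hipk3 and Plcb1 include that shift. In the authors' deposited table the log2 fold change of Hipk3 was 1.37. Within 1000000 bases of Platr5, Platr26 and Platr4 there were 0 deposited genes. Their nearest protein-coding genes, Arl4c, Itga6 and Jade1, and those of Platr14 and Platr3, Cstf3 and Plcb4, were not analysed here.

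The 6 Platr genes had one direction. Every MF library was below every NC library for 6 of 6, which is also so for 33.7% of all named deposited genes and for 669 of the 709 named genes listed as lower. The counting intervals of the lowest NC and the highest MF library overlapped for Platr14, Platr3, Platr11, Platr26 and Platr4. For Platr5 they did not, at 3.35 FPKM and above in NC replicate 3 and up to 3.09 FPKM in MF replicate 2. By edgeR's quasi-likelihood test over the whole table, 6 of 6 had an adjusted p under 0.05 and a lower level, against a background of 35.4% of the 1651 tested genes called lower and 62.1% called higher, and all 6 had passed the filter of 0.5 FPKM. Since the table was selected on this contrast, nothing is read from these counts. Scaling the libraries to the deposited genes moved the median of all genes by -1.09 (TMM) or -1.12 (DESeq2) on the log2 scale and left all 6 lower. Relative to the median of all genes, the median of the 6 was -4.02 as reported, -4.01 with TMM and -3.94 with DESeq2. The call of the members depended on which library was left out, as did the calls over the whole table. It was made for 0 of 6 without NC replicate 2, MF replicate 1 or MF replicate 3 in turn. In these fits 146, 90 and 0 of the 1651 tested genes were called lower, against 584 with all libraries. An unadjusted p under 0.05 was reached by 1, 5 and 3 of the 6 Platr genes, and by 300, 313 and 208 lower genes over the table. The call was made for 3 Platr genes without NC replicate 1 and for 5 without NC replicate 3, when 219 and 383 genes were called lower. It was made for 6 without MF replicate 2 or without both replicate 2 libraries, when 582 genes were called lower in each fit.

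The counts summed over the 6 Platr genes did not overlap between the groups. They came to 24.1, 81.6 and 24.1 CPM (counts scaled to library depth) in NC replicates 1, 2 and 3 and to 1.83, 15.5 and 7.50 CPM in MF, with means of 43.3 ± 33.2 and 8.29 ± 6.89 (SD, n = 3). NC replicates 1 and 3 were alike in this sum, and MF replicate 1 was the lowest library. Platr14 made up most of the sum, from 50.7% in NC replicate 1 (exact 95% interval 45.5% to 55.8%) to 74.6% in MF replicate 3 (65.9% to 82.0%). Platr5 took 13.5% and 11.1% of the Platr counts in NC replicates 1 and 3 but 3.73% in NC replicate 2 (2.77% to 4.90%), where the other genes were high. Its share was 0 of 122 counts in MF replicate 3, which allows up to 2.46% at 3 counts (exact 95% upper bound 2.98%). These intervals cover counting error only.

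**Figure D3:**
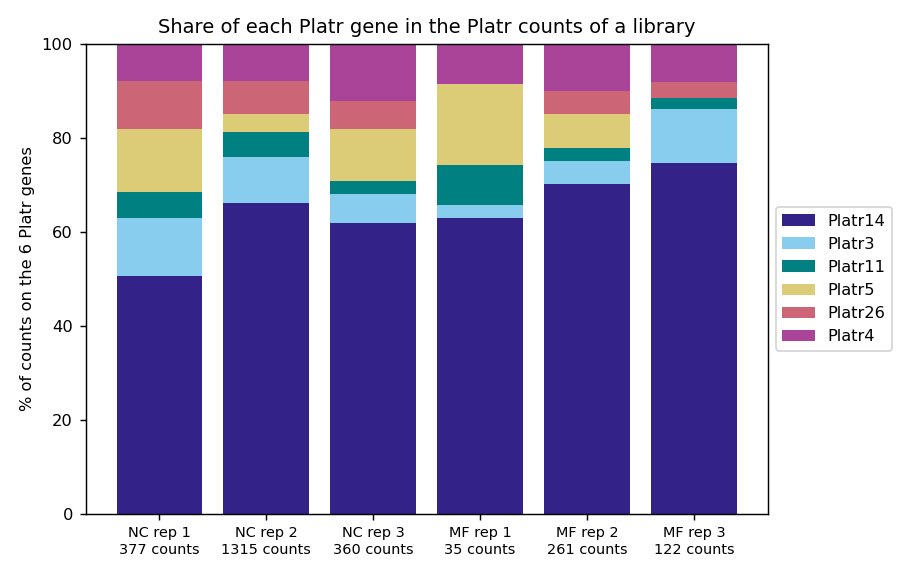
Percent of the counts on the 6 Platr genes that each gene takes, by library, with the number of Platr counts under each bar. Platr14 takes 50.7% to 74.6%, and the share of Platr5 is 3.73% in NC replicate 2 and 0 in MF replicate 3; the bar of MF replicate 1 rests on 35 counts.

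Among themselves the members other than Platr5 followed one pattern of libraries. After each group's mean was removed from log2(FPKM + 0.1), the 10 pairs without Platr5 had Pearson's r between 0.71 and 0.98 over the 6 libraries, with a median of 0.85, and the 5 pairs with Platr5 had r between -0.12 and 0.33. These are descriptions of 6 libraries, whose points share library and depth. Platr5 had 0 counts in MF replicate 3, so its value there was set by the added 0.1, as was that of Platr26 in MF replicate 1. How far the low r of Platr5 rests on that library was not tested. Of the 6 genes, 5 were highest in NC replicate 2, as were 82.5% of the named genes listed as lower in MF, and 5 were lowest in MF replicate 1, against 69.5%. The median ratio of NC replicate 2 to the mean of the other NC libraries was 3.29 for the 6 Platr genes, 2.06 for the named genes listed as lower and 2.27 for the 55 lncRNA genes among the lower genes, the 6 Platr genes included. The order of the levels within a library also shifted: Platr14 came first throughout and Platr4 last in NC, while Platr3, Platr11, Platr5 and Platr26 changed places between libraries, and their NC means, from 4.996 to 9.95 FPKM, differed by less than the SD of Platr3.

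Other noncoding genes give the setting. Of the 100 deposited lncRNA genes, 55 are listed as lower in MF (55%), the 6 Platr genes among them. By mean level in NC, Platr14 ranked 4, Platr3 6, Platr11 12, Platr5 13, Platr26 14 and Platr4 44 among the 100. By size of the fold they were not at the top: among the 55 lower genes Platr26 ranked 20 and Platr14 41, and the median log2 fold change was -2.74 for the 6 Platr genes, -3.02 for the other 49 and -1.96 for all 709 named lower genes. Of the 27 listed characterised noncoding genes 3 were deposited, and all 3 were higher in MF. For H19 the log2 fold change was 1.18, and 0.12 (TMM) or 0.10 (DESeq2) when libraries were scaled to the deposited genes. That scaling moved the median of all genes by -1.09 (TMM) or -1.12 (DESeq2). The 3 genes were the imprinted H19 (1592 ± 694 FPKM in NC and 3619 ± 1272 in MF) and Airn (0.501 ± 0.405 and 2.04 ± 0.999), and Evx1os (0.0497 ± 0.0121 and 0.674 ± 0.455, SD, n = 3).

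Protein-coding genes of naive pluripotency, the state in which Platr transcripts are abundant, had the same order of libraries by their median. That order was also the one of all 709 named genes listed as lower in MF. All 14 deposited of 35 listed were lower in MF, beside 36.8% of all deposited genes, with a median log2 fold change of -1.99, beside 1.28 for all named deposited genes. Utf1, a chromatin factor of stem cells, was at 162, 335 and 131 FPKM in NC and at 12.6, 85.8 and 21.8 FPKM in MF, and the Krüppel-like factor Klf2 at 124, 322 and 101 FPKM in NC and 52.5, 80.3 and 37.6 FPKM in MF. The list median relative to the NC mean was -0.43, 0.65 and -0.57 log2 units in NC replicates 1, 2 and 3 and -3.09, -1.09 and -2.62 in MF, against -0.57 and 0.89 in NC replicates 1 and 2 and -3.93, -1.66 and -2.77 in MF for the Platr genes, whose lowest NC library was replicate 3. Both lists were thus highest in NC replicate 2 and lowest in MF replicate 1, though Klf2 was lowest in MF replicate 3. The median of the 709 named lower genes was -0.36, 0.58 and -0.47 log2 units in NC replicates 1, 2 and 3. In MF it was -2.22, -1.11 and -1.98, so this order is not particular to either list.

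Germ cell genes were also listed as lower. All 10 deposited of 17 listed were lower in MF, beside 36.8% of all deposited genes, with a median log2 fold change of -2.36, and their summed level was 62.3, 205 and 48.1 FPKM in NC and 5.22, 22.7 and 10.2 FPKM in MF. Sohlh2, a transcription factor of germ cells, was at 15.9, 77.1 and 17.5 FPKM in NC and at 0.199, 5.29 and 2.16 FPKM in MF. The part of germ cell genes and of the cells behind them in the Platr values was not tested. Of the primed pluripotency and streak genes, 6 of 16 were deposited and 5 of these were lower in MF. The list median did not peak in NC replicate 2. It was -0.37 log2 units there, against 0.00 and 0.24 in NC replicates 1 and 3. The genes were split, however. Nodal, at 26.5, 32.9 and 25.3 FPKM in NC, was highest in NC replicate 2. Foxh1 and Sox4, of which Sox4 was higher in MF, were lowest there. Dnmt3b, a DNA methyltransferase, was at 52.1, 14.2 and 48.7 FPKM in NC, so that NC replicate 2 was the lowest, and Lefty2, a Nodal antagonist, was at 44.0, 93.4 and 43.4 FPKM. Zscan4f alone of 10 genes of the 2-cell-like state was deposited, at 0.228, 1.62 and 0.137 FPKM in NC and 0, 0 and 0.0941 FPKM in MF.

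**Figure D4:**
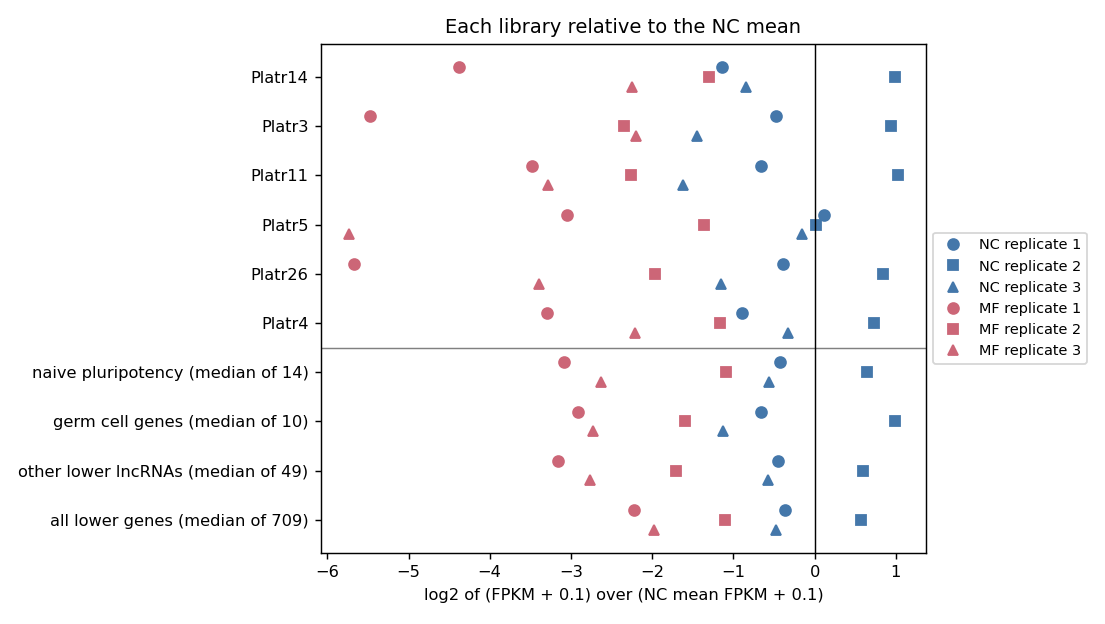
Each library relative to the NC mean, as log2 of FPKM + 0.1 over the NC mean + 0.1, for the 6 Platr genes and the medians of 14 naive pluripotency regulators, 10 germ cell genes, 49 other noncoding genes and all 709 named genes listed as lower in MF. NC replicate 2 is rightmost in every row but Platr5, and MF replicate 2 is nearest to the NC libraries except for Platr3.

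Markers of other cell types that embryoid bodies can hold went the other way or were few. In a table where 1274 of 1983 named genes were higher in MF, so were all 9 deposited of 10 mesenchyme markers (Col3a1 at 5.10 ± 1.97 and 149 ± 108 FPKM). So were 4 of 5 deposited endothelial markers of 7 listed, 4 of 4 trophoblast markers of 9 listed and Gata6, the only endoderm marker deposited of 10. Scaled to the deposited genes by TMM or DESeq2, which moved the median of all genes down, 3 of 4 trophoblast markers were higher and Gata3 was lower. Gata6 was at 0.981, 2.93 and 2.78 FPKM in NC and at 25.9, 2.19 and 23.3 FPKM in MF, so that MF replicate 2 lay within the NC range. The summed levels in NC replicates 1, 2 and 3 were 248, 90.9 and 133 FPKM for mesenchyme and 242, 162 and 249 FPKM for trophoblast, lowest in NC replicate 2. Pecam1, an adhesion molecule of endothelium that stem cells also carry, was lower in MF and was at 8.43, 38.2 and 8.75 FPKM in NC. Of 8 neural markers 0 were deposited.

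The protein-coding genes most like the Platr genes were sought among 940 with a mean of at least 2 FPKM. By deviations from the group means, the 5 with the highest Pearson's r over the 6 libraries were Polr3g, an RNA polymerase III subunit abundant in stem cells (r = 0.998), Aurkc, the aurora kinase of meiosis (0.997), Gpa33 (0.996), Rinl (0.996) and Zfp978 (0.995). Polr3g went from 15.3 to 7.36 FPKM between the group means and Aurkc from 13.3 to 1.27 FPKM. By the library values themselves, the 5 were Aurkc (0.999), Nfatc2ip (0.998), Dmrt1, a transcription factor of germ cells (0.997), Slc9b1 (0.997) and Fkbp6, a factor of meiosis (0.997). With log2(FPKM + 1) 0 of the first 5 and 2 of the second 5 were again among the top 5. By Spearman's rho, 32 genes by deviations and 139 by library values were tied with or above the gene in place 5. The 5 are thus not a distinct set. The library values also include the difference between the groups on which the table was selected.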

How the data were processed

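Poly-A RNA of 3 NC and 3 MF libraries was sequenced by the authors, and the series text calls them biological triplicates; whether these were separate cultures is not said, so the spread and p-values may be technical. HISAT2 2.0.5, featureCounts and the mm10 build are named in the submitters' processing notes. Per the file headers, the deposited tables give for each gene the read count, the FPKM and the authors' log2 fold change with its p-value and adjusted p-value, over 2031 genes that the authors had selected. The tables also hold a normalised signal, the count divided by 1 size factor per library by the authors, which entered no test. Library totals were recovered from the deposited count and FPKM of each gene and its length, and 48 unnamed rows were left out of the tests.

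Log2 fold changes and SE came from edgeR 4.0.16 (R 4.3.3) with the recovered totals as library sizes, and those of the members from a fit without a filter. The quasi-likelihood test was run on the 1651 named genes whose mean reached 0.5 FPKM, with Benjamini-Hochberg adjustment at 0.05 over those genes. This adjustment covers the selected genes only and does not control errors over the genome. DESeq2 1.42.0, TMM and limma 3.58.1 were alternatives, and the edgeR fit was tested on simulated data. DESeq2 and TMM scaled the libraries to the deposited genes alone, most of them higher in MF, which moved the median log2 fold change of all genes down. Intervals are exact Poisson or binomial, at 95%. A count of 0 is also read as allowing up to 3 counts, which lies below the exact upper bound. Both cover counting error only.

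Same-numbered NC and MF libraries deviated together (r = 0.386, 0.554 and 0.320 for numbers 1, 2 and 3), so numbers were treated as pairs in an alternative fit; this rests on the values, since no label states a shared batch. NC replicate 3 and MF replicate 1 had r = 0.545. The Platr genes, the gene lists and the tests were chosen with earlier results of these data known. Beyond the Platr genes, the text names the nearest deposited gene on each side within 1000000 bases, at most 4 genes a list by mean level, and the 5 genes most like the Platr mean profile by each of 2 measures. Nodal is named besides these.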

Additional observations from a re-analysis of the deposited data

How the results depend on the processing

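All 6 Platr genes were lower in MF under every alternative run, except that with a mean of at least 2 FPKM 5 were in the table. Of the member values, 83 of 83 lay below 0, those with the 0.5 FPKM filter included, an alternative added after seeing the data. The table was selected on this contrast, and every MF library was below every NC library for all 6. Their direction was thus largely fixed in advance, and nothing is read from it. The median log2 fold change of -2.74 became -3.83 with TMM and ranged from -3.45 to -1.97 when 1 library was left out. With limma on log2(FPKM + 1), which understates the change of low genes, it was -1.89, and Platr4 was at -0.88 against -2.28 as reported. With replicate number as a block it was -2.88, and 590 genes were called lower and 1030 higher, against 584 and 1026 without the block, which changed no call of a Platr gene. Calls of higher genes came to 180 with TMM and 263 with DESeq2, so the share of calls that were lower went from 36.3% to 76.8% and 69.5%. With a mean of at least 2 FPKM, 369 genes were called lower and 611 higher. Leaving out 1 library gave 0 to 582 lower and 12 to 996 higher calls. The 0 was without MF replicate 3, where edgeR had 208 lower genes at an unadjusted p under 0.05 and no other tool was run. Of the 5 genes most like the Platr genes by deviations, 0 were again among the first 5 with log2(FPKM + 1) and 1 with Spearman's rho. By library values these numbers were 2 and 0. The cause of these differences was not tested. Counts of 0 to 7 behind several MF values limit their precision.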
